A study of Mus musculus with 20 samples.

Results

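Arrays of replicate series 1 and 2 were compared with arrays of replicate series 3, 4 and 5 across 20 Affymetrix mouse expression arrays of the femoral shaft. The split follows the series number in each array's title and takes in all 20 arrays of the study, 8 in series 1 and 2 and 12 in series 3 to 5. Every array held RNA pooled from 2 mice of one genotype and sex, so the 40 mice make 20 samples. All mice were 5 weeks old and of C57BL/6J background. Hyp mice carry the X-linked mutation of Phex that causes hypophosphatemic rickets, the males as hemizygotes (Hyp/Y) and the females as heterozygotes (Hyp/+), and the normal mice were their wild-type littermates. Each series held 1 array of normal males, 1 of Hyp males, 1 of normal females and 1 of Hyp females, so genotype and sex were balanced in both sets. The labels state that the arrays of a series were matched for littermates and processed in parallel. They name no batch that joins series 1 with series 2, or series 3 with 4 and 5. The time of day at which bones were collected and the dates of hybridisation are not given in the sources used here.

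The femoral shaft is a tube of cortical bone whose RNA comes from osteocytes in the matrix, osteoblasts and osteoclasts on its surfaces, blood vessels, marrow left after flushing and skeletal muscle attached to the outside. How much muscle and marrow stays on a shaft depends on the dissection, while clock genes and glucocorticoid-induced genes follow the daily cycle and handling of the animals. A Hyp bone is known for its poorly mineralised matrix and for altered expression of osteocyte genes. The bone identity of the samples was plain on all arrays: Col1a1, the main collagen of bone matrix, had a mean signal of 59675 ± 7835 (SD, n = 8) in series 1 and 2 and 50901 ± 8091 (SD, n = 12) in series 3 to 5, and Dmp1, an osteocyte matrix protein, had 14983 ± 6125 and 15902 ± 3823. Muscle RNA was as plain, with Acta1, skeletal muscle actin, at 58505 ± 8328 and 45725 ± 5539. In bulk bone, fewer cells of a type and less RNA per cell cannot be told apart.

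Signals are the deposited linear intensities, which share a trimmed mean of 500.0 on every array. Differences were tested on log2(signal + 16) with limma over the 27141 probe sets called present on at least 5 of the 20 arrays, and a log2 difference is positive where series 1 and 2 were higher. A probe set was called where the Benjamini-Hochberg adjusted p was under 0.05. Each array is a pool of separate mice, and p-values measure the spread between these pools.

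Pooled over probe sets, the set was the largest single term of those fitted. It took up 19.6% of the pooled variance, against 12.96% for series within a set, 8.23% for genotype, 9.15% for sex and 4.77% for a Hyp effect that differs between the sets. At the median probe set the share was 8.56% for the set, on 1 degree of freedom, and 12.2% for series within a set, on 3. Shares of terms with unlike degrees of freedom cannot be ranked directly. On the first principal component (22.7% of the variance) the 8 arrays of series 1 and 2 lay between -52.5 and 7.86 and the 12 arrays of series 3 to 5 between 5.21 and 35.01. Only the Hyp male array of series 1 reached the range of the other set. The second component, with 13.1%, set the Hyp male arrays of series 1 and 2 apart from the other 18, at 57.6 and 46.2.

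**Figure D1:**
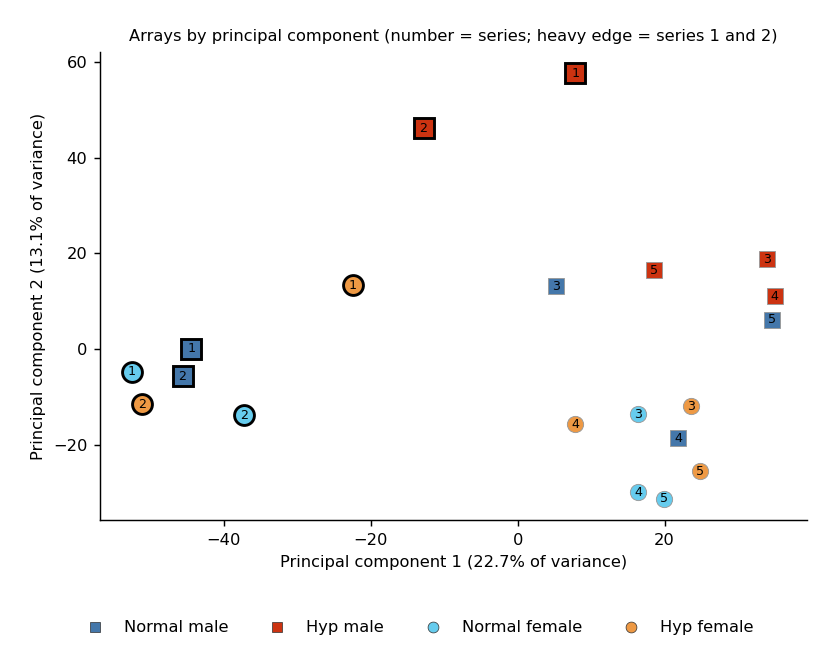
Each point is 1 array placed by its first 2 principal components of log2 signal, with the share of variance on each axis; numbers give the series, colours and shapes the genotype and sex, and heavy edges series 1 and 2. Series 1 and 2 lie to the left except for the Hyp male array of series 1 at 7.86, and the Hyp male arrays of series 1 and 2 lie above all others.

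Between the sets, 4523 of 27141 probe sets differed, a background of 16.7%: 1656 were higher in series 1 and 2 (6.1%) and 2867 were lower (10.6%). Centring each array on its median turned this split to 2580 higher and 2311 lower, so the balance of directions rests on the scaling. The arrays of a series share litter and processing, so the comparison was also made on 5 series means, which called 2255 probe sets (8.31%), 564 higher (2.08%) and 1691 lower (6.23%). All 8 arrays of series 1 and 2 stood above all 12 others for 41 probe sets (0.151%), and below them for 445 (1.64%). With each gene read by its brightest probe set, 1002 of 12430 genes were higher (8.06%) and 642 lower (5.16%). A permutation of the 5 series between groups of 2 and 3 has only 10 arrangements and cannot reach 0.05. In the authors' deposited table, the block term of their analysis of variance had a class below 0.001 for 989 of these probe sets (3.64%).

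Some control measures on the arrays moved with the split and others did not. The ratio of the 3' to the middle probe set of actin, which rises as RNA or labelled product shortens, was between 1.92 and 2.41 in series 1 and 2 and between 1.53 and 2.05 in series 3 to 5. The ratio of the 3' to the 5' actin probe set did not move with it, at 1.49 to 1.88 and 1.42 to 1.87. The ratio of the 3' to the middle probe set of Gapdh had means of 0.911 ± 0.048 (SD, n = 8) and 0.909 ± 0.047 (SD, n = 12), and its 3' to 5' ratio 0.948 ± 0.064 and 0.927 ± 0.071. The bioB spike minus the bioD spike, bacterial control transcripts spiked into each sample, was between -2.14 and -1.95 on the log2 scale in series 1 and 2 and between -3.01 and -2.74 in series 3 to 5, with no overlap. Probe sets called present made up 49.3% to 54.7% of each array in the first set and 53.6% to 56.9% in the second. The SD of log2 signal over the probe sets tested was 1.818 to 1.886 and 1.755 to 1.816, without overlap. The log2 bioC spike was 11.66 to 12.14 and 10.34 to 11.65, also without overlap. The transferrin receptor had a mean 3' to middle ratio of 5.96 ± 1.76 (SD, n = 8) and 4.87 ± 1.06 (SD, n = 12). Its 3' to 5' ratio was 6.39 ± 2.26 and 5.15 ± 0.89, and both ratios overlapped. With the actin 3' to middle ratio as a covariate, 421 probe sets were called (1.55%), 39 higher and 382 lower, while the median standard error rose from 0.12 to 0.20.

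**Figure D2:**
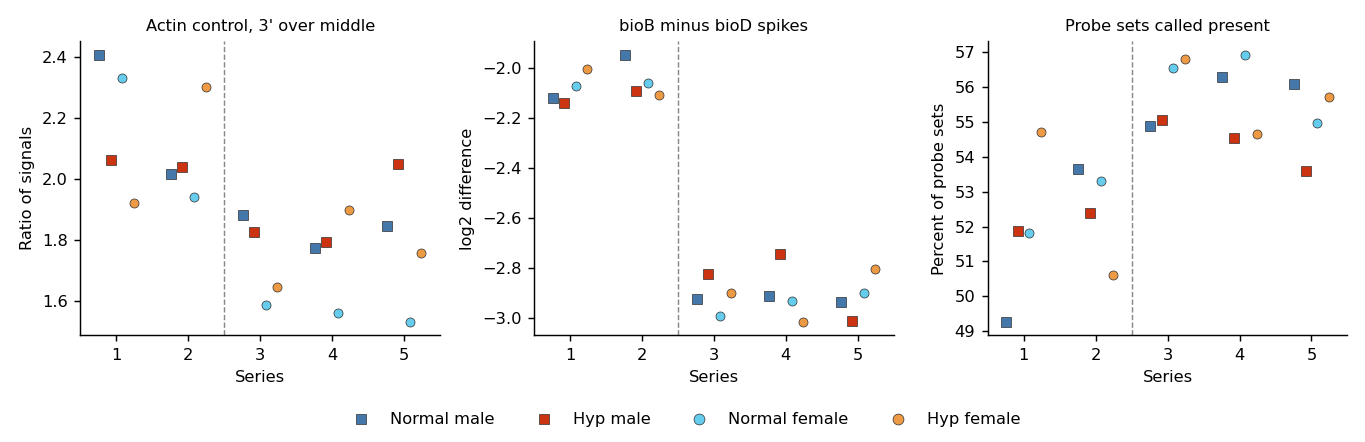
Points are single arrays by series, with the actin 3' to middle ratio at left, the log2 difference of the bioB and bioD spikes in the middle and the percentage of probe sets called present at right; the dashed line parts series 2 from series 3. The spike difference is -2.14 or more on all 8 arrays of series 1 and 2 and -2.74 or less on all 12 others, while the other 2 measures overlap.

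Malat1, a long noncoding RNA of nuclear speckles and among the most abundant nuclear transcripts, was lower in series 1 and 2. Its signal ranged from 1965 to 8304 with a median of 5101 in series 1 and 2 and from 22452 to 45933 with a median of 33161 in series 3 to 5. The sets did not overlap, and Malat1 was 6.63-fold lower (log2 difference -2.73 ± 0.16 SE, adjusted p = 2.1e-09 by limma). Of its 6 other probe sets, 4 were also called lower, with log2 differences down to -3.25, and 2 stood at 0.04 and 0.13. Neat1, the RNA that builds paraspeckles, differed the other way, at 0.44 ± 0.08 (adjusted p = 0.00112). Of the 6 nuclear long noncoding RNAs listed, Meg3, Snhg1, Kcnq1ot1 and Gas5 did not pass the test.

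Gprin3, which was near background in series 1 and 2, was also lower there. Its signal ranged from 3.9 to 80.3 with a median of 39.9 in series 1 and 2 and from 213 to 528 with a median of 430.0 in series 3 to 5, and only 2 of the 8 arrays of series 1 and 2 called it present. The fitted log2 difference, which rests on signals mostly not called present, was -3.03 ± 0.24 (adjusted p = 7.4e-08), and the other probe set of Gprin3 stood at -0.02. Gsap, which codes for a protein that activates gamma-secretase, ranged from 50.4 to 92.6 in series 1 and 2, where 1 array called it present. In series 3 to 5 it ranged from 205 to 397 (-1.96 ± 0.11, adjusted p = 1.2e-09), and its other probe set, at -0.13, was not called. Ercc6, a repair factor that acts on stalled transcription, was called present on 1 of 8 arrays in series 1 and 2 and on all 12 others, with a difference of -1.84 ± 0.22 (adjusted p = 1.4e-05).

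Runx1, a transcription factor of blood formation, had signals from 464 to 768 with a median of 556 in series 1 and 2 and from 1100.3 to 2467 with a median of 1488 in series 3 to 5, a 2.60-fold difference (-1.38 ± 0.12, adjusted p = 2.4e-07). Its 2 other probe sets stood at -0.13 and 0.04. Prdm2, a zinc finger protein of the histone methyltransferase family, was 3.02-fold lower (adjusted p = 7.1e-09), and its 2 other probe sets at 0.06 and 0.29 had the opposite sign. The other 6 of the 12 genes named for the largest differences without overlap in this direction were Endod1 at -1.94, Nrk, a kinase of the germinal centre family, at -1.75, 4632415L05Rik at -1.53, Zfp935 at -1.50, Evi5, a regulator of Rab GTPases, at -1.40, and Dnajb14, a co-chaperone of the endoplasmic reticulum, at -1.37. Of the 2 other probe sets of Nrk 1 was called lower and 1 stood at 0.23, and the other of 4632415L05Rik stood at 0.25. Those of Evi5 and Dnajb14, at -0.23 and -0.17, were not called. All 12 named lower genes passed on series means, with adjusted p from 0.00027 to 0.0022 by limma. They also passed in all 25 repeats that left out 1 series or array, and with the actin 3' to middle ratio held.

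Genes higher in series 1 and 2 without overlap differed by smaller amounts. Phxr4 ranged from 353 to 559 in series 1 and 2, where 7 of 8 arrays called it present, and from 109.9 to 249 in series 3 to 5, where none of 12 did. Its difference was 2.36-fold (adjusted p = 2.3e-06 by limma), and the signals of series 3 to 5 on which this rests were not called present. Timp3, an inhibitor of matrix metalloproteinases held in the extracellular matrix, ranged from 3145 to 5344 with a median of 3919.8 in series 1 and 2 and from 1869.8 to 2523 with a median of 2251 in series 3 to 5. Its difference was 0.82 ± 0.08 (adjusted p = 1.8e-06) and its 3 other probe sets were all called higher, at 0.55 to 0.79. Igf1r, the receptor for insulin-like growth factor 1, was 1.44-fold higher (adjusted p = 0.00016), although 3 of its 4 other probe sets had the opposite sign, the lowest at -0.78.

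The other 9 named higher genes were Ptp4a3, a phosphatase, Tia1, an RNA-binding protein of stress granules, Apbb2, an adaptor of the amyloid precursor protein, Egln2, an oxygen-sensing prolyl hydroxylase, Pxmp4 of the peroxisome membrane, Capns1, the small calpain subunit, Timm44 of mitochondrial import, Rabl6, and Dvl1, a Wnt signal transducer. Their log2 differences went from 0.35 for Dvl1 to 0.78 for Ptp4a3. No other probe set of Ptp4a3, Tia1, Apbb2, Rabl6 or Dvl1 was called higher, while 1 of the 2 others of Timm44 was. Of the 4 others of Tia1 2 had the opposite sign, and of the 4 others of Rabl6 1 did, at -0.47. On series means, Ptp4a3, Tia1 and Apbb2 passed and the other 6 had adjusted p from 0.0514 to 0.0751. With the actin 3' to middle ratio held, 5 of the 12 higher genes passed: Phxr4, Timp3, Tia1, Igf1r and Rabl6. A call of Pxmp4 was lost in 2 of 25 repeats with 1 series or array left out, and no call of the 11 others was.

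**Figure D3:**
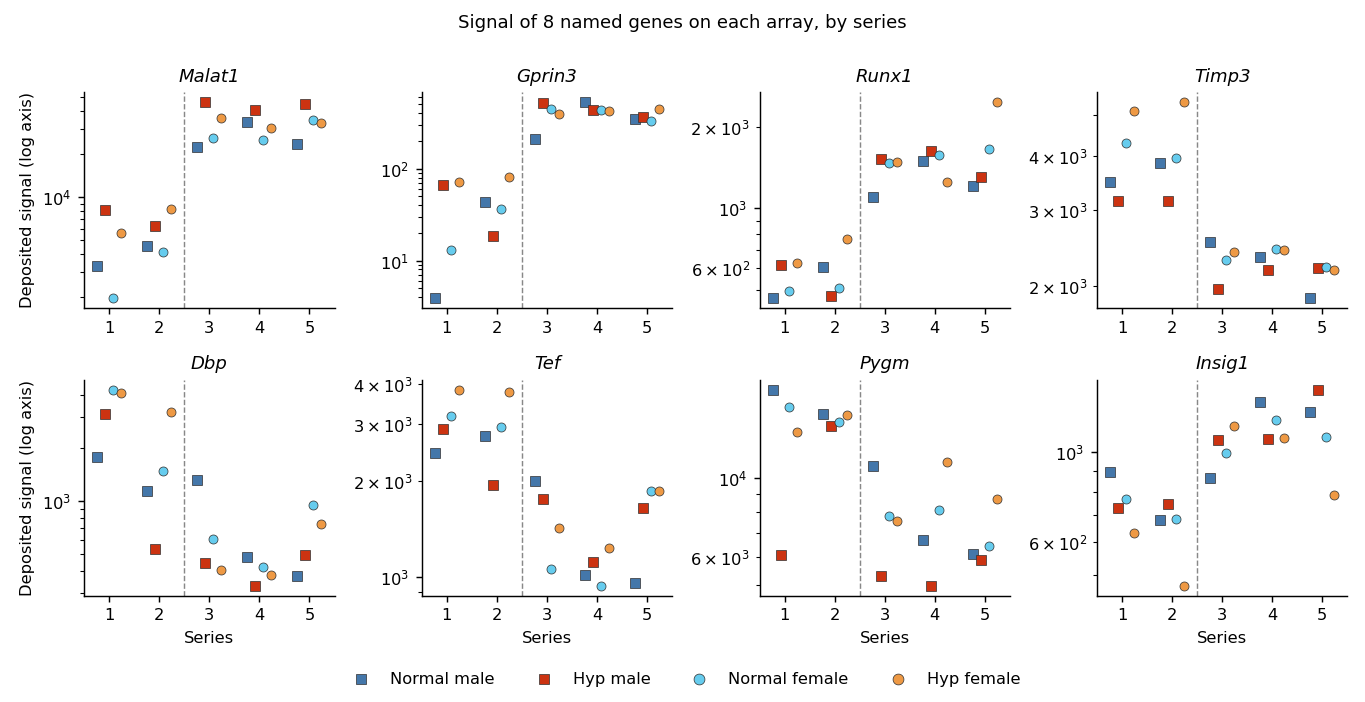
Deposited signal on a log axis is plotted for 8 genes, with 1 point per array placed by series and coloured by genotype and sex; the dashed line parts series 2 from series 3. Malat1, Gprin3 and Runx1 are lower and Timp3 is higher on every array of series 1 and 2, while Dbp, Tef, Pygm and Insig1 shift with overlapping arrays.

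Probe sets of one gene often disagreed. Among the 5775 genes with more than 1 probe set tested, the brightest was called lower for 7.39% and higher for 8.36%, whereas the 10026 dimmer probe sets of these genes were called lower for 14.9% and higher for 4.66%. In 1019 genes a dimmer probe set was called lower and the brightest was not. Sparc and Ttn, chosen after their values were seen, show this. Sparc, a bone matrix protein, had mean signals of 65025 and 55150 at its brightest probe set (0.24 ± 0.10, adjusted p = 0.106), and 106 and 477 at its dimmest, where the difference was -2.16 ± 0.24. Ttn, the giant spring protein of muscle, differed by 0.05 ± 0.10 at its brightest probe set and by -2.44 ± 0.22 at another, whose mean signal was 1096 in series 1 and 2 and 6158 in series 3 to 5.

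Probe sets without a single gene symbol were called lower more often, in 15.7% of 4685, against 9.49% of 22456 with 1 symbol. Gene length moved with direction as well. The RefSeq span of the gene, known for 99.8% of the 12430 genes, had a median of 18.2 kb among genes called higher, 38.5 kb among genes called lower and 23.999 kb over all. In the quintile of genes with the shortest spans 10.8% were called higher and 3.95% lower, and in the quintile with the longest 5.93% were higher and 8.06% lower. The same order held among genes above the median signal, with 9.5% of the longest quintile called lower against 5.31% of the shortest. These shares describe the calls, and what sets them was not tested.

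Skeletal muscle genes rose as a group in series 1 and 2. Of 34 members tested, 21 were higher and 0 lower against 8.06% and 5.16% of all genes, with a median difference of 0.47 against 0.03 over all genes. The share of genes called higher rose with signal, from 1.93% in the dimmest quintile to 14.96% in the brightest, where 6.68% were lower. The muscle, respiratory and glycolysis lists are bright by their mean levels, so the brightest quintile is their closer background. Pygm, muscle glycogen phosphorylase, ranged from 6063 to 17668 with a median of 14709 in series 1 and 2 and from 4962 to 11066 with a median of 7118 in series 3 to 5 (0.89 ± 0.15, adjusted p = 0.00033). The Hyp male array of series 1, at 6063, lay within the other set, and the 7 other arrays of series 1 and 2 lay above all 12 of series 3 to 5. Atp2a1, the calcium pump of fast muscle, was 1.55-fold higher (adjusted p = 0.00026). Myoz1 of the Z-disc rose by 0.78 ± 0.14, Casq1, the calcium store of the sarcoplasmic reticulum, by 0.70 ± 0.13, and the fast troponins Tnni2 and Tnnt3 by 0.58 ± 0.11 and 0.52 ± 0.10. No member had arrays without overlap, and the list's mean level ran from 13.3 to 14.7 in series 1 and 2 and from 12.8 to 14.3 in series 3 to 5. On series means 19 were higher. The count was 12 under quantile normalization, 6 without series 2 and 0 with the actin 3' to middle ratio held, where the median was 0.18.

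Genes of oxidative phosphorylation, the mitochondrial respiratory chain and ATP synthase, were higher in 18 of 25 and lower in 0, with a median of 0.43 and all 25 differences above 0. Uqcrc1 of complex III ranged from 4166 to 9263 with a median of 6414 in series 1 and 2 and from 3219 to 6543 with a median of 3989 in series 3 to 5 (0.63 ± 0.13, adjusted p = 0.00259). Ndufa4 rose by 0.56 ± 0.12, Sdhc of complex II by 0.46 ± 0.10, and the cytochrome c oxidase subunits Cox5b, Cox6c and Cox4i1 by 0.45, 0.45 and 0.37. The arrays of the sets overlapped for every member. On series means 8 were higher. Leaving out series 1, 2 or 4 gave 12, 5 and 10, leaving out the Hyp male array of series 2 gave 12, and 0 were called with the actin 3' to middle ratio held.

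Glycolysis genes were higher in 7 of 11 and lower in 1, with a median of 0.51. Pkm, pyruvate kinase of muscle and growing cells, ranged from 7379 to 14255 with a median of 12901 in series 1 and 2 and from 6546 to 9749.7 with a median of 7770.1 in series 3 to 5 (0.64 ± 0.10, adjusted p = 0.00017). Pfkm, the phosphofructokinase of muscle, rose by 0.78 ± 0.17, Hk2 by 0.61 ± 0.15, Tpi1 by 0.60 ± 0.13, Ldha by 0.55 ± 0.11 and Aldoa by 0.51 ± 0.10. The count of higher members was 3 on series means and 2 without series 2. Fatty acid oxidation genes were higher in 5 of 12 and lower in 0, with a median of 0.30, which was -0.01 with the actin 3' to middle ratio held. Acadvl, the very long chain acyl-CoA dehydrogenase, rose by 0.49 ± 0.13 (adjusted p = 0.015) and Ucp3, a mitochondrial carrier of muscle, by 0.73 ± 0.21 (adjusted p = 0.0234). None of these 12 passed on series means.

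Clock genes had the largest median of any list, 0.58. The clock turns on a loop in which Clock or Npas2 with Arntl drives the Per, Cry, Nr1d and PAR-domain genes through E-boxes, and the products of those genes repress the loop or act through D-boxes and ROR elements. In sampled tissues Arntl and Npas2 are known to peak at the opposite time of day to Dbp, Tef and Per3. Of 15 members tested, 8 were higher and 2 lower in series 1 and 2, against 8.06% and 5.16% of all genes. The members called higher were Dbp, Tef and Hlf, the PAR-domain factors, Per1 and Per3, Cry2, Nr1d2 and Bhlhe40, and those called lower were Npas2 and Arntl. Hlf, Bhlhe40, Per1 and Arntl rank below the 6 members with the smallest p and are named to complete the count. Bhlhe41 and Ciart were called present on 1 array each and were not tested. Promoter sequences of 4 of the higher members are shown because they hold, or lack, the sites through which the clock acts. They run from 250 bases before to 50 after a start site in RefSeq GRCm38.p6, 5′ to 3′ on the gene's strand, with the E-box CACGTG and the D-box TTATGTAA in capitals.
Dbp: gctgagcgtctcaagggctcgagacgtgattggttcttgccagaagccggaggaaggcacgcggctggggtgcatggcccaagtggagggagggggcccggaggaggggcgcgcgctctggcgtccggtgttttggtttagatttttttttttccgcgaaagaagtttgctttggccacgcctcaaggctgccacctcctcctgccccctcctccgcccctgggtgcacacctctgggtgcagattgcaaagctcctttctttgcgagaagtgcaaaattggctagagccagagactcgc
Tef: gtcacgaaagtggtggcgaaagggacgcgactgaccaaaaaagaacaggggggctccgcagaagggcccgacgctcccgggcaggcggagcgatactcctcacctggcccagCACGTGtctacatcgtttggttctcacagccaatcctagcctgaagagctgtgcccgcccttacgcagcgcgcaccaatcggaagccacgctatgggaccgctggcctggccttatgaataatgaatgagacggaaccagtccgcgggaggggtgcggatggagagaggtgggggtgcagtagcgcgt
Per3: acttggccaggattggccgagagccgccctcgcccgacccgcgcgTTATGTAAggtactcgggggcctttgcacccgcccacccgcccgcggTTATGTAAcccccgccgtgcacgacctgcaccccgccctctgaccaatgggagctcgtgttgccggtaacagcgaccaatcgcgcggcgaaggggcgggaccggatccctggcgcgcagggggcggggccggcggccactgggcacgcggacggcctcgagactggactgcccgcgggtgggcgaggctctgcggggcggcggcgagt
Per1: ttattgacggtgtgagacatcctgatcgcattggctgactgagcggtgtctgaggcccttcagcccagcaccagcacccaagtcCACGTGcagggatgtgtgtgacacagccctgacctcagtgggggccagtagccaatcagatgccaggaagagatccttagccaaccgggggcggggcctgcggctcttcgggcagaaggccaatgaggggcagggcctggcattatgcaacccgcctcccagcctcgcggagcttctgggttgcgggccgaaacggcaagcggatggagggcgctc

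The windows lie at chr7:45704997-45705296, plus strand, for Dbp, chr15:81811164-81811463, plus strand, for Tef, chr4:151044616-151044915, minus strand, for Per3, and chr11:69098699-69098998, plus strand, for Per1. In the windows shown, Per3 holds 2 D-boxes, Tef and Per1 hold 1 E-box each, and Dbp holds neither. Per1 has another start site whose window, chr11:69099902-69100201, holds 0 E-boxes and 0 D-boxes. Tef has another at chr15:81802423-81802722, which holds 1 E-box. Both strands were searched over 27025 genes with a promoter, of which 8.09% held an E-box, 1.11% a D-box and 18.1% the ROR element core AGGTCA in some window. Of the 13 clock members tested that had a promoter, 3 held an E-box, 1 a D-box and 5 the AGGTCA core. A match is a description of letters and does not mark a bound site.

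Dbp, an output factor of the clock, ranged from 529 to 4269 with a median of 2443 in series 1 and 2 and from 328 to 1312 with a median of 461 in series 3 to 5. The difference was 1.91 ± 0.34 (adjusted p = 0.00071, 0.0199 on series means), and its other probe set stood at 2.00. In series 1 the 4 arrays were between 1765 and 4269, in series 2 between 529 and 3199, and in the other set the normal male array of series 3 was highest at 1312, followed by the normal female array of series 5 at 943. Tef ranged from 1945 to 3841 with a median of 2930.2 in series 1 and 2 and from 940.2 to 2003 with a median of 1331 in series 3 to 5 (1.10 ± 0.17, adjusted p = 0.00017). Per3 was 2.34-fold higher (adjusted p = 0.00085) and Nr1d2, a repressor of Arntl, 1.85-fold higher (adjusted p = 0.00134). Npas2 ranged from 57.7 to 383 with a median of 192 in series 1 and 2 and from 127 to 675 with a median of 523 in series 3 to 5, a difference of -1.21 ± 0.33 (adjusted p = 0.0174). Arntl differed by -0.65 ± 0.19 (adjusted p = 0.0285). On series means 5 members were higher, 5 were without series 1, and 0 with the actin 3' to middle ratio held, where the median was 0.34. The hour of collection was not available here, and its part in these differences was not tested.

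Genes induced by glucocorticoids were higher in 7 of 16 and lower in 0, against 8.06% and 5.16% of all genes, with a median of 0.34. Klf9, a steroid-induced transcription factor, ranged from 5285 to 9363 with a median of 7625 in series 1 and 2 and from 4290.3 to 7292 with a median of 5217 in series 3 to 5 (0.47 ± 0.11, adjusted p = 0.00559). Tsc22d3, the anti-inflammatory mediator known as GILZ, rose by 0.60 ± 0.14, Sgk1, a kinase of ion transport, by 0.47 ± 0.13 and Dusp1, a phosphatase of MAP kinases, by 0.50 ± 0.14. Klf15 was called present on 5 of 8 arrays in series 1 and 2 and on none of 12 in series 3 to 5, and was at least 2.19-fold higher (adjusted p = 0.00773). Of the 16 genes 5 are also members of another list, among them Per1, which is in the clock list. On series means 2 members were higher. Leaving out series 1, 2 or 5 gave 3, 2 and 3, leaving out the normal female array of series 1 gave 4, and leaving out both Hyp male arrays of series 1 and 2 gave 4.

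**Figure D4:**
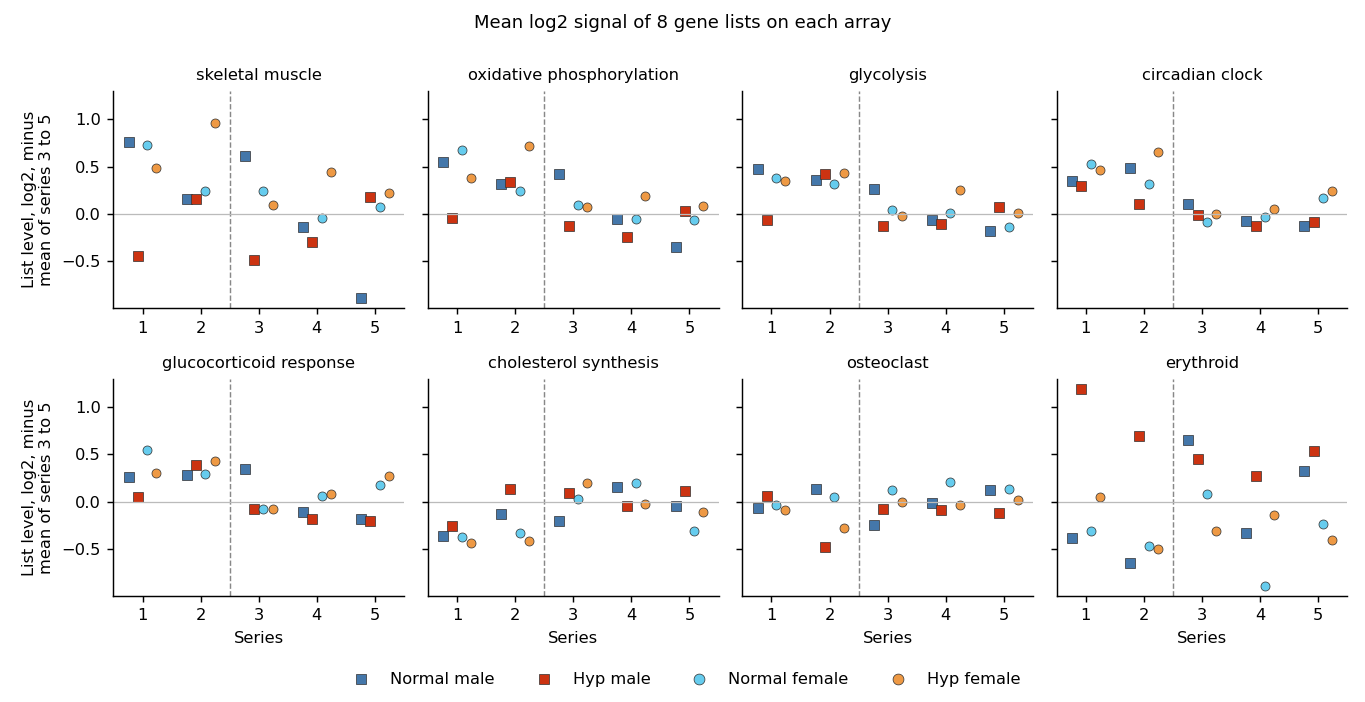
Points are the mean log2 signal of a gene list on each array, less the mean over the 12 arrays of series 3 to 5, placed by series and coloured by genotype and sex. Muscle, respiratory, glycolytic, clock and glucocorticoid lists lie higher and the cholesterol list lower in most arrays of series 1 and 2, while the osteoclast list does not part and the erythroid list is highest in the Hyp male arrays of series 1 and 2.

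Cholesterol synthesis genes were lower in 7 of 14 and higher in 0, with a median of -0.27. Insig1, the protein that retains SREBP in the endoplasmic reticulum, ranged from 469 to 893 with a median of 707 in series 1 and 2 and from 786 to 1423 with a median of 1087 in series 3 to 5 (-0.66 ± 0.11, adjusted p = 0.00038). Msmo1 fell by 0.72, Sqle, squalene epoxidase, by 0.70, Cyp51 by 0.64, Idi1 by 0.46 and Hmgcs1, the entry enzyme of the pathway, by 0.36 on the log2 scale. On series means 2 were lower. Leaving out series 1 or 3 gave 2 and 4, and leaving out the normal male array of series 1 gave 4. Of 17 genes of the unfolded protein response 4 were lower (23.5%) and 1 higher (5.88%), against 5.16% and 8.06% of all genes. The chaperones Hsp90b1 and Hspa5 and Manf, a protein induced by stress of the endoplasmic reticulum, fell by 0.53, 0.48 and 0.52, and Herpud1, which acts in protein degradation there, rose by 0.57. None of the 17 passed on series means.

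Immediate early genes did not move one way: 4 of 21 were higher (19.05%) and 1 lower (4.76%), against 8.06% and 5.16% of all genes. With 1 gene each, the lower shares of this list and of the growth hormone list are near that background. Jund, a subunit of AP-1, ranged from 2474 to 3879.7 with a median of 3086 in series 1 and 2 and from 4115 to 9734 with a median of 5907 in series 3 to 5, without overlap (-1.02 ± 0.14, adjusted p = 5e-05). Nr4a1 rose by 0.81 ± 0.16 and Ccn2 by 0.49 ± 0.09. Of 13 genes of the growth hormone list 2 were higher (15.4%) and 1 lower (7.69%). Igf1r and Ghr, the growth hormone receptor, rose and Igf2r fell by 0.53. Of 15 hypoxia response genes 3 were higher (20.0%) and 0 lower, with Egln1 at 0.46 ± 0.11 (adjusted p = 0.0061). The median of this list was 0.05, with 8 differences above 0 and 7 below, and 3 of its genes are also in another list.

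The bone and marrow lists given here had between 0 and 3 members called, where 8.06% of all genes were called higher and 5.16% lower. Of 14 osteoblast and matrix genes 2 were lower and 0 higher: Ibsp, bone sialoprotein, at -0.31 ± 0.10 (adjusted p = 0.0349) and Cthrc1 at -0.47 ± 0.15 (adjusted p = 0.0384). Of 11 osteocyte genes, Irx5 alone was lower (-0.58 ± 0.17, adjusted p = 0.0278), and of 19 Wnt genes Dkk2, Wif1 and Wnt5a were. The lower members were 14.3%, 9.09% and 15.8% of these lists. On series means 1 osteoblast, 1 osteocyte and 1 Wnt gene were lower. Among 12 cartilage genes Col11a1 was lower at -0.54 ± 0.12, and among 12 B lymphocyte genes Ebf1, a factor of early B cells and adipose precursors, was lower without overlap at -1.14 ± 0.10 (adjusted p = 3.4e-07). Of 12 adipocyte genes Plin4 and Pnpla2 were higher, and of 15 endothelial genes Eng and Esam. On series means 2 adipocyte genes and 0 endothelial genes were higher. No member passed in the lists of osteoclast (16 tested), erythroid (11), heme synthesis (9), neutrophil (15), megakaryocyte (9), cell cycle (19), smooth muscle (8), tendon (15) or interferon response genes (12), although 1 tendon gene passed on series means. All 19 cell cycle genes had differences below 0, with a median of -0.17. With the actin 3' to middle ratio held that median was 0.04 and 12 of the 19 were above 0. The same covariate moved the median of the neutrophil list from 0.04 to 0.62, of the B lymphocyte list from -0.12 to 0.38 and of the megakaryocyte list from 0.01 to 0.46. Of 16 T and NK lymphocyte genes 5 were tested, and Cd3d, Cd3e and Cd3g were called present on no array.

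Phex, the mutated gene, was first read as the check of genotype. In series 1 and 2 its signals were 2943 to 3789 on normal male and 3388 to 3472 on normal female arrays, 3.8 and 39 on the 2 Hyp male arrays and 357 and 847 on the 2 Hyp female arrays. In series 3 to 5 they were 2391 to 4003 on normal male and 4302 to 5764 on normal female arrays, 20.8 to 48.2 on the Hyp male and 757 to 832 on the Hyp female arrays. No Hyp male array called Phex present, so males were at least 74.1-fold lower in series 1 and 2 and at least 64.8-fold lower in series 3 to 5. The female pairs, whose Hyp mice keep 1 normal copy, were at -3.23 and -1.98 in series 1 and 2 and between -2.77 and -2.48 in series 3 to 5. Averaged over both sexes, Phex fell by 4.64 ± 0.25 (SE) in series 1 and 2, with adjusted p = 4.9e-07, and by 4.32 ± 0.20 in series 3 to 5, with adjusted p = 7.7e-08, both on the log2 scale. All 4 pairs and all 6 pairs were lower, and the male part of this average rests on signals not called present. Where its probes lie along the gene was not available here. A pair here is the Hyp and the normal array of one sex in one series.

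Within series 1 and 2, 672 probe sets differed between Hyp and normal mice (2.48%), 534 higher (1.97%) and 138 lower (0.508%). Within series 3 to 5, 8 differed (0.0295%), 3 higher (0.0111%) and 5 lower (0.0184%), although that set had 6 pairs against 4 and a smaller median standard error, 0.15 against 0.18. Both contrasts come from one fit that shares its spread. The difference between the 2 Hyp effects passed for 0 of 27141 probe sets by limma. Its lowest adjusted p was 0.166, so the unequal counts are not shown to be a difference in effect. An unadjusted p under 0.05 was found for 2273 (8.37%), a larger share than the 0.05 that this threshold gives on average where nothing differs. Probe sets move together across arrays, so this share is no test of whether the Hyp effects differ. The median standard error of the difference was 0.23, so 0 calls do not show that the 2 Hyp effects are equal. Without the Hyp male arrays of series 1 and 2, 4 probe sets were called within series 1 and 2 and 13 within series 3 to 5. Fitted to the arrays of each set alone, the counts were 0 and 1.

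These counts rested on single arrays. The interaction count was 2 without series 1, 2 without series 2, 5 without the normal female array of series 2, 1 without the normal male array of series 3, and 0 in the other repeats that left out 1 series or array. The 672 fell to 14, 138, 150 and 355 without series 1, 3, 4 or 5, to 56 and 145 without the Hyp male array of series 1 or 2, to 41, 53 and 426 without the normal male array of series 1, 2 or 4, to 203 and 379 without the normal female array of series 1 or 3, and to 137 and 403 without the Hyp female array of series 1 or 3. The 8 of series 3 to 5 went to 1 without any one series, to 1 without the normal female array of series 4 or 5, the normal male or the Hyp female array of series 5, to 2 without the Hyp male array of series 3 or 5 or the normal female array of series 3, to 3 and 4 without the normal male array of series 4 or 1, and up to 13, 16 and 39 without the normal female array of series 1, the Hyp male array of series 4 or the normal male array of series 3.

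Of the 534 probe sets higher in Hyp within series 1 and 2, 474 (88.8%) also had a difference above 0 within series 3 to 5, where 52.5% of all probe sets did. Their median was 0.84 in the first set, which chose them, and 0.17 in the second. Of the 138 lower, 118 (85.5%) were below 0 in series 3 to 5, where 47.5% of all were, with medians of -0.74 and -0.31. Of the 8 probe sets called within series 3 to 5, all had the same sign in series 1 and 2. The 5 with a gene symbol were Phex, Gcnt2, Ushbp1, Tgfbr1 and Stmn3.

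Osteocyte genes other than Phex had a median Hyp difference of -0.65 in series 1 and 2 and -0.53 in series 3 to 5. Sost, the osteocyte's inhibitor of Wnt signalling, had signals of 244 to 448 on the normal arrays and 55.5 to 205 on the Hyp arrays in series 1 and 2 and 265 to 560.1 on the normal arrays and 109.9 to 152 on the Hyp arrays in series 3 to 5. Its Hyp effect was at -1.31 ± 0.29 in series 1 and 2 (adjusted p = 0.0325) and at -1.32 ± 0.23 in series 3 to 5 (adjusted p = 0.0639), and the 95% interval of the difference was -0.79 to 0.79. Dkk1, another Wnt inhibitor, was at -1.27 ± 0.29 and -1.26 ± 0.24, with an interval of -0.81 to 0.78. Dmp1 was at -1.03 ± 0.23 and -0.62 ± 0.18, with an interval of -1.03 to 0.22. The 26 genes of the Hyp list were chosen for their response in these data, so their calls are no evidence of it, and the difference between the sets passed for none. Cpz, a carboxypeptidase with a Wnt-binding domain, was at -1.31 ± 0.23 and -1.08 ± 0.18, and Lpar3, a receptor for lysophosphatidic acid, at -1.05 ± 0.17 and -0.79 ± 0.14, lower in all 10 pairs each. Fgf23, the phosphate-lowering hormone of bone, was at 0.00 ± 0.23 and -0.15 ± 0.19 and passed in neither set. Malat1 itself was at 1.07 ± 0.21 (adjusted p = 0.0262) and 0.49 ± 0.17 (adjusted p = 0.352). Of the 10 osteocyte genes other than Phex, Sost, Dmp1 and Dkk1 fell in series 1 and 2 and 0 passed in series 3 to 5. The mean over these 10 genes was below 0 in every pair of both sets, from -1.46 in the males of series 2 to -0.18 in the males of series 1. Among these 10 genes, Sost, Dkk1, Dmp1, Mepe, Pdpn and Fgf23 are also on the Hyp list. The mean and its sign in the pairs are therefore no evidence of a Hyp effect. Without the Hyp male arrays of series 1 and 2, 0 of the 10 were called in series 1 and 2.

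Members of the megakaryocyte, cell cycle and erythroid lists were called higher in Hyp mice within series 1 and 2, where 1.79% of all genes were called higher and 0.595% lower, against 0.00805% and 0.0161% within series 3 to 5. Of 9 megakaryocyte genes 7 rose in Hyp within series 1 and 2 and 0 in series 3 to 5, with medians of 1.22 and 0.24. Pf4, platelet factor 4, was at 1.26 ± 0.27 (adjusted p = 0.0305) and 0.24 ± 0.22 (adjusted p = 0.778), and the difference did not pass (interval 0.29 to 1.76, adjusted p = 0.502). Of 19 cell cycle genes 12 rose in series 1 and 2 and 0 in series 3 to 5, with medians of 0.78 and 0.17. The megakaryocyte mean shift was 1.27 and 2.09 in the male pairs of series 1 and 2 and 1.42 and 0.06 in the female pairs, and that of the cell cycle list was 1.46 and 1.03 in the males and 0.58 and -0.17 in the females. Mki67, a proliferation antigen, was at 1.09 ± 0.21 and 0.26 ± 0.17 (adjusted p of the difference 0.484). Of 11 erythroid genes 3 rose in series 1 and 2, Car1, Rhag and Slc4a1, and 0 in series 3 to 5, with medians of 0.93 and 0.14. The erythroid mean shift of the male pairs was 1.58 in series 1 and 1.34 in series 2, that of the female pairs 0.37 and -0.03, and that of the 6 pairs of series 3 to 5 from -0.39 to 0.75. Without the Hyp male arrays none of these 3 lists had a called member in series 1 and 2, while their medians were 1.21, 0.72 and 0.81 with the male effect there taken from the genotype by sex term of all series. No interaction of any member of the 3 lists passed.

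**Figure D5:**
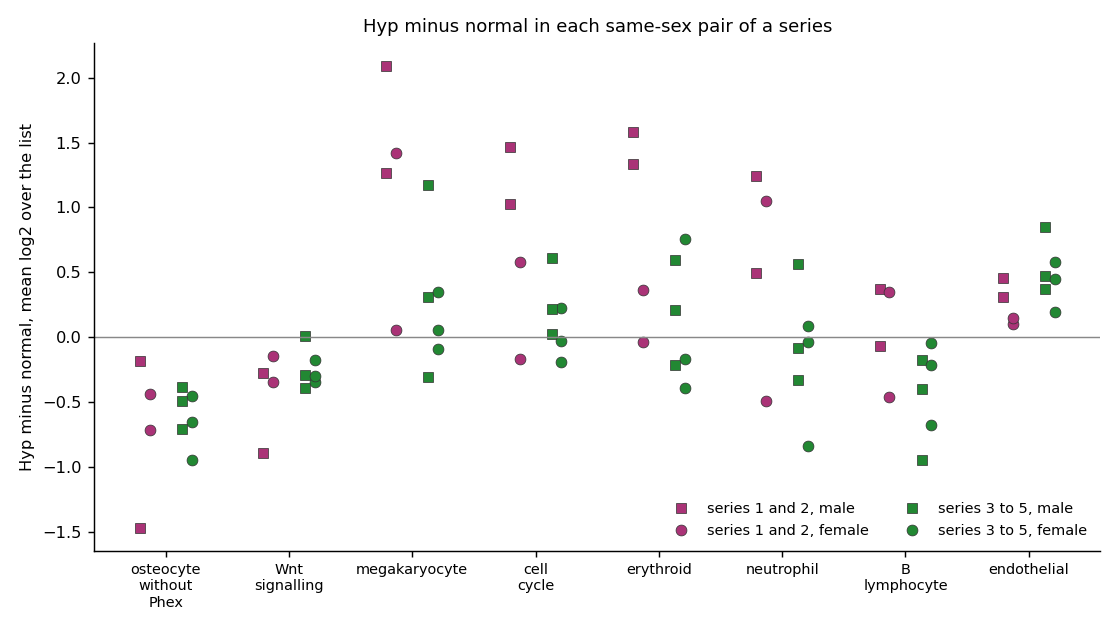
Points are Hyp minus normal in each same-sex pair of a series, as the mean log2 difference over a gene list, with 4 pairs of series 1 and 2 and 6 pairs of series 3 to 5. The osteocyte list, drawn without the mutated gene Phex, is below 0 in all 10 pairs, and the megakaryocyte, cell cycle and erythroid lists are highest in male pairs of series 1 and 2, at 2.09, 1.46 and 1.58. Sost, Dkk1, Dmp1, Mepe, Pdpn and Fgf23 of the osteocyte list are also Hyp genes chosen with earlier results of these data known.

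Endothelial and smooth muscle genes had the larger Hyp median in series 3 to 5, and no member's difference between the sets passed. The 15 endothelial genes had medians of 0.15 and 0.49, with 1 called in series 1 and 2, Stab2, and 0 in series 3 to 5. Pecam1, an adhesion protein of endothelium, was at 0.20 ± 0.17 and 0.73 ± 0.14, with an interval of the difference from -1.004 to -0.06 (adjusted p = 0.556). The 8 smooth muscle genes had medians of 0.04 and 0.42, and the 12 B lymphocyte genes 0.02 and -0.48. No member of the smooth muscle or B lymphocyte lists passed in either set. Prg2, the major basic protein of eosinophils, was at 1.99 ± 0.25 (adjusted p = 0.00457) and 1.03 ± 0.20 (adjusted p = 0.107), positive in all 10 pairs. Without the Hyp male arrays of series 1 and 2 it passed in both sets, at 1.78 and 1.03. Pecam1 and Prg2 are on the Hyp list chosen from these data, so their calls and pair counts are no evidence of a Hyp effect.

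The 10 genes with the smallest p for the difference of the Hyp effects were Mir1949, Cenpl, Fbll1, Gna14, Igha, Fut10, Cd22, Slc6a8, C130021I20Rik and Tyms, and none passed adjustment. The probe set annotated to Mir1949 was not matched to the microRNA itself, and its values are not given. Igha, the immunoglobulin A heavy chain, was at 2.05 ± 0.33 and -0.05 ± 0.27 (1.17 to 3.02, adjusted p = 0.341). Tyms, thymidylate synthase, was higher in all 10 pairs, at 1.12 ± 0.14 and 0.33 ± 0.11 (interval 0.41 to 1.16). It is on the Hyp list chosen from these data, so its pair count is no evidence of a Hyp effect. Cenpl of the centromere was at 0.97 ± 0.16 and -0.10 ± 0.13, and Slc6a8, the creatine transporter, at -0.51 ± 0.12 and 0.20 ± 0.10.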

How the data were processed

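Total RNA of mouse femoral shafts, 2 mice pooled per sample, was measured on 20 arrays; per the labels, 8 µg of purified RNA was labelled and spiked with control transcripts. The deposited values are linear signal intensities made with GCOS, per the submitters' processing notes. The version and scaling target are not given in the sources used here. Detection calls and an analysis of variance, with F statistics as a score per term and P classes, were deposited beside them; the classes of the block term were used only as counts. Signals were identical in both deposited tables.

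Signals were used as log2(signal + 16) without further normalization, over 27141 probe sets called P on 5 or more arrays, with 64 control probe sets left out. Of 45101 probe sets, 34958 carry 1 gene symbol, 932 several and 9211 none. A gene was read by its brightest probe set with 1 symbol; of 717 symbols in the 47 lists, 66 had no probe set and are not analysed here, and 1 matched through a synonym. The set difference was fitted in limma 3.58.1 (R 4.3.3) with group as a term and series as a random block (consensus correlation 0.017). The pairing by series comes from the labels (littermates, parallel processing). The Hyp effects were fitted with series, sex, genotype by sex and genotype by set, and 2-sided p-values were adjusted by Benjamini-Hochberg over all probe sets tested. The steps were tested on simulated data. Named genes are the 12 with the largest difference each way among called genes whose arrays did not overlap, up to 6 members per list by smallest p, the 10 smallest interaction p, and a fixed list of Hyp genes. The split, members and lists were chosen with earlier results of these data known. The number of arrays limits the precision. Alternatives were the pseudocount, the scaling, the filter, the block, series means, control ratios as covariates, and leaving out arrays; the actin 3' to middle ratio and the set without Hyp male arrays of series 1 and 2 were chosen after seeing the data.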

Additional observations from a re-analysis of the deposited data

Results flagged for a closer look

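In groups of 4 to 10 arrays or pairs, 141 tested in all, 8 single values stood apart by the gap to their nearest neighbour, a test that chance trips in about 1 of 20 groups. The glycolysis list of the Hyp male array of series 1 had a mean log2 level of 12.15 against 12.52 to 12.68 on the other 7 arrays of series 1 and 2. The male pair of series 3 had a Hyp minus normal mean of -0.4243 over the glucocorticoid list against -0.07256 to 0.1029 in the 5 other pairs of series 3 to 5. On the log2 scale within series 1 and 2, Ptp4a3 was at 11.99 in the normal female array of series 1 (11.31 to 11.61 in the others) and Dvl1 at 13.04 in the Hyp female array of series 2 (12.62 to 12.79). In the normal male array of series 2, Gsap was at 6.763 (6.053 to 6.356 in the others) and 4632415L05Rik at 4.621 (6.603 to 7.446). Among pairs of series 3 to 5, Lpar3 was at -1.555 in the males of series 4 (-0.8175 to -0.4325 in the others) and Tyms at 0.5076 in the females of series 5 (0.2538 to 0.3408).

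Cd22, an inhibitory receptor of B lymphocytes, was higher in Hyp in all 4 pairs of series 1 and 2 and lower in all 6 pairs of series 3 to 5. The difference of the 2 Hyp effects was 0.9426 on the log2 scale, with an interval of 0.52 to 1.37 and an adjusted p of 0.341 by limma, so it did not pass.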

How the results depend on the processing

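Without the replicate block, 4916 probe sets differed between the sets, 490 between Hyp and normal within series 1 and 2, 8 within series 3 to 5 and 0 in the interaction; neither of the larger counts moved by over 1.5 times. Of the 4523 probe sets called between the sets, 2089 were called in the same direction among the 2255 of the series means, and 405 among the 421 with the actin 3' to middle ratio held, where 49 had the other sign. With that ratio held, 0 members of the muscle, respiratory, glycolysis, clock, glucocorticoid and cholesterol lists were called, and of 280 genes named or leading a list 45 turned sign, of which 1, Pdk4 at -0.0508, had been called. On series means those lists had 19, 8, 3, 5, 2 and 2 called members. Quantile normalization gave 12 muscle members, and without both Hyp male arrays of series 1 and 2 the glucocorticoid list had 4. The cause of these changes was not tested. Holding the actin 3' to 5' ratio gave 5478 calls. With 1 series or array left out, the set count was 2474 to 5746 (2474 without series 2 and 2902 without series 4), muscle 6 to 25, respiratory 5 to 22, glycolysis 2 to 7, clock 5 to 9, glucocorticoid 2 to 8 and cholesterol 2 to 8. The interaction count was 0 under each setting that kept all arrays and 0 to 5 with 1 series or array left out. The Hyp count within series 1 and 2 was 54 with no filter on calls, 1095 for probe sets present on all 20 arrays, 0 from the arrays of the set alone, 4 without both Hyp male arrays, and 14 to 1000 with 1 left out. Within series 3 to 5 it was 30 with a pseudocount of 64, 23 under quantile normalization, 16 under median centring, 3 with no filter, 52 for probe sets present on all arrays, 1 from the set alone, 13 without both Hyp male arrays, and 1 to 39 with 1 left out. Probe sets near background limit the low genes named here, since Gprin3, Gsap and Ercc6 were called present on at most 2 of the 8 arrays of series 1 and 2.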
